A study of Homo sapiens with 2 samples.

Results

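The genes described here are 10 neighbours on the long arm of chromosome 11, in band 11q13: CCND1, LTO1, FGF19, FGF4, FGF3, ANO1, FADD, PPFIA1, CTTN and SHANK2, in chromosomal order. Every probe set annotated to them was taken, 26 in all, out of 54675 probe sets and 19775 named genes on the array. The members were chosen by gene name and place, with their signals and CD90+ over CD90- ratios on these same arrays known, so those values are given as a description. The samples were 2, both of KYSE-140, a cell line grown from a human squamous carcinoma of the esophagus, which flow cytometry had parted by the surface glycoprotein CD90. The first was total RNA of the CD90+ cells and the second total RNA of the CD90- cells, each hybridised once to an Affymetrix U133 Plus 2.0 chip. Neither fraction had another treatment in the labels, both came from the same line, and no sort was repeated. No spread between samples can be estimated, so no difference has a test or an error, and each fold describes these 2 RNA samples.

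The segment is amplified in many squamous carcinomas, and the gene that gives it its name in cancer is CCND1. Cyclin D1, its product, binds the kinases CDK4 and CDK6, which phosphorylate the retinoblastoma protein and let cells enter S phase. ANO1 encodes the calcium-activated chloride channel anoctamin 1, also known as TMEM16A or DOG1, and CTTN encodes cortactin, which stabilises branched actin at the cell edge. Their neighbours encode secreted fibroblast growth factors, the death receptor adaptor FADD, the scaffold proteins liprin-alpha-1 and SHANK2, and LTO1, a small adaptor in the maturation of an iron-sulfur protein needed by ribosomes. Copy number was not measured here.

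The promoter windows shown are those of the 4 measured members for which a window was on hand. Of these 4, ANO1 had the highest ratio between the fractions, FADD the next and LTO1 and PPFIA1 ones near 0. No window was on hand for SHANK2 and CCND1, whose ratios lay between those of ANO1 and FADD, or for CTTN. Each window runs from 250 bases before to 50 bases after the gene start in RefSeq (GRCh38.p14), 5′ to 3′ on the gene's own strand, which is the minus strand for LTO1 and the plus strand for the others. Capitals mark matches on either strand to any of 6 motifs searched: the GC box GGGCGG, the CCAAT box CCAAT, an ETS core CCGGAAG, the AP-1 site TGANTCA, the cyclic AMP element TGACGTCA and the TATA box TATAAA. The windows are chr11:69985657-69985956 for ANO1, chr11:70203046-70203345 for FADD, chr11:69675304-69675603 for LTO1 and chr11:70270440-70270739 for PPFIA1.
ANO1: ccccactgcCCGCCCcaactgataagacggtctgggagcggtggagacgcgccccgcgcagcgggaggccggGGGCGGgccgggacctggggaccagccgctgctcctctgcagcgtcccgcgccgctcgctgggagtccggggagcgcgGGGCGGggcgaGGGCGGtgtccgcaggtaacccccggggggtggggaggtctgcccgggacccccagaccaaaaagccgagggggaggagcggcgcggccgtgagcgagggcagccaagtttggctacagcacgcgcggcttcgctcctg
FADD: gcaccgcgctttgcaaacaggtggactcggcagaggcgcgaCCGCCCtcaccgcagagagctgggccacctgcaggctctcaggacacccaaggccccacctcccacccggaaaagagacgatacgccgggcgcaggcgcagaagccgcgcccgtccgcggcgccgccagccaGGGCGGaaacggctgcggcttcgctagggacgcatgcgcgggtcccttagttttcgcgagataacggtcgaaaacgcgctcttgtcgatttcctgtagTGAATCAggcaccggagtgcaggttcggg
LTO1: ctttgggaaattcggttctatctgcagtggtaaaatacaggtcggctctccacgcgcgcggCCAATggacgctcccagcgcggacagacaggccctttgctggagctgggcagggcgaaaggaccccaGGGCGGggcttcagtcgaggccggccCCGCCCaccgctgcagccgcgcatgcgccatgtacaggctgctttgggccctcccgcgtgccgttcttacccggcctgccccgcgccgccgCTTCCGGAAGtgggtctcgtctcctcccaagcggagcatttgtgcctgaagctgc
PPFIA1: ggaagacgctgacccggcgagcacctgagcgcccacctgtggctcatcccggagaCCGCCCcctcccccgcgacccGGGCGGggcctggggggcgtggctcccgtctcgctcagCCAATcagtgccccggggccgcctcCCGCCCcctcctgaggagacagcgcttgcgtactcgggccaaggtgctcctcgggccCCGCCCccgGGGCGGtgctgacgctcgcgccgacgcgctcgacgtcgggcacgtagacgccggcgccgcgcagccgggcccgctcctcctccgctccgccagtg
The ANO1 window held 4 GC boxes and no match to the other motifs, and the PPFIA1 window held 5 GC boxes and 1 CCAAT box. FADD had 2 GC boxes and 1 AP-1 match, which lay after the gene start and reads the same on both strands but for its middle base. In LTO1 the 2 GC boxes and 1 CCAAT box were joined by 2 overlapping ETS cores at the gene start. A window was on hand for 5 members, FGF3 being the other, and all 5 had a GC box, as did 45.0% of 35116 promoter windows of that length. Of the 5 windows 3 had a CCAAT box, 1 an ETS core and 1 an AP-1 match. The shares over all windows were 34.6%, 10.3% and 7.71%. The GC content was 76.0% in ANO1, 77.7% in PPFIA1, 66.7% in FADD and 67.0% in LTO1, against a median of 58.7% over all windows. GC boxes were thus found in members with a high and with a low ratio, and a match is a string of letters and not a bound site.

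Signals are MAS5 signals, linear intensities that the authors scaled to the same trimmed mean on each array (500 to the nearest unit, from 499.9 on both). Values under a common floor of 71.6, the middle of all signals, were set to it, and a gene was called measured if the brightest of its probe sets was at or above that floor in either fraction. Of the 26 probe sets 17 were above the floor on both arrays, 1 on 1 array and 8 on neither. By gene, 7 of the 10 members were measured, and FGF19, FGF4 and FGF3 were not. Squamous markers were measured in both fractions, which does not by itself identify the line. The basal keratin KRT5 read 19357 in CD90+ and 19208 in CD90- cells, and all 11 squamous markers with a probe set were measured. The other 4 of the 15 listed, KRT6A, KRT6B, KRT17 and TP63, had no probe set named to them alone. THY1, which encodes CD90, had a log2 ratio of 1.90 (293 against 78.9), in the direction of the sort. In RNA of a sorted fraction, fewer cells that express a gene and less RNA in each cell cannot be told apart.

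**Figure D1:**
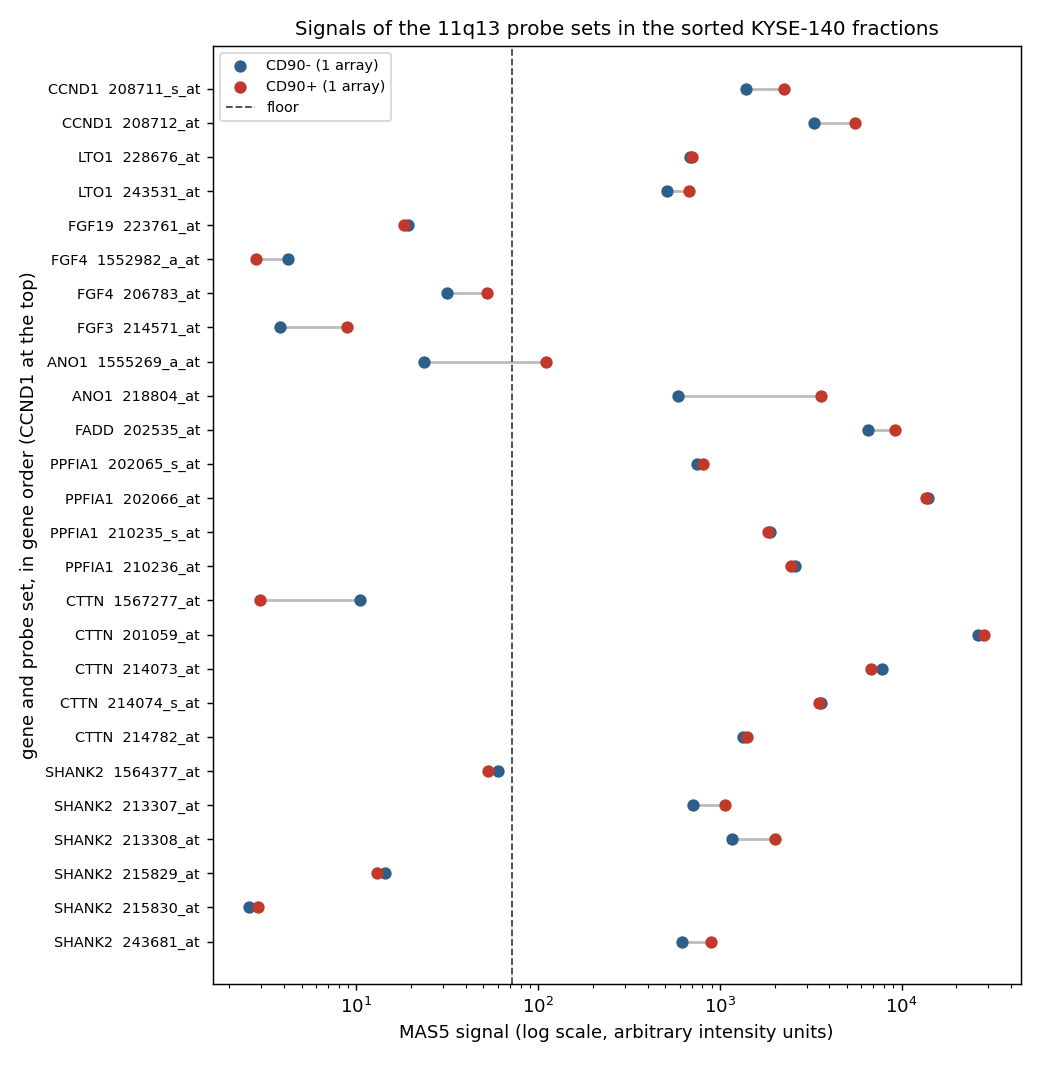
MAS5 signal of each of the 26 probe sets of the 11q13 genes, on a log axis, in CD90+ cells (red) and CD90- cells (blue), 1 array each, with the floor of 71.6 as a dashed line. The widest gaps above the floor are those of ANO1, the pairs of PPFIA1 and CTTN above the floor lie almost on each other, and all 4 probe sets of FGF19, FGF4 and FGF3 lie left of the floor.

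ANO1 differed most between the fractions. The signal of its brighter probe set, 218804_at, was 3585 in the CD90+ fraction against 588 in the CD90- fraction, which is 6.10-fold (log2 ratio 2.61). The signal was far above the floor in both fractions, at 50.1 times the floor in CD90+ and 8.21 times in CD90- cells, so the fold does not lean on the floor. Among the 5012 measured genes whose brighter signal was at least 16 times the floor, 5 had a ratio at least as high, ANO1 included, and it ranked 17 among all 12466 measured genes. The other probe set, 1555269_a_at, was dim, at 110.3 in CD90+ and 23.6 in CD90- cells. With the lower signal raised to the floor this is at least 1.54-fold, and 4.68-fold without a floor. This probe set was measured through its CD90+ signal alone, so its floored ratio could not fall below 0 and adds no second measurement of the direction.

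ANO1 was the 1 member at least 2-fold higher in CD90+ cells, and 0 of the 7 measured members were at least 2-fold lower. The shares over all measured genes were 2.47% for higher, 1.75% for lower and 4.22% for either way. Each count of a gene list below is to be read beside these shares. Of the 7 ratios 6 were above 0, as were 51.2% of those of all measured genes. Nearby the share was higher: 39 of the 50 measured genes flanking the segment were above 0. So were 69.6% of the 695 other measured genes of chromosome 11. At a 1.5-fold difference 3 members were higher, ANO1, SHANK2 and CCND1, beside 7.37% of all measured genes. The median log2 ratio of the 7 was 0.49, against 0.01 over all measured genes, and 0.30 for the 6 members other than ANO1. Because the choice of genes used this comparison, these counts describe the members and nothing is read from them about the segment.

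Among the other anoctamins, of 9 relatives with a probe set 4 were measured and 0 were beyond 2-fold, with a median log2 ratio of 0.11. The scramblase ANO6 read 2829.5 in CD90+ and 2514 in CD90- cells, and ANO8 read 254 against 245. ANO10, picked out with its values known, had 286 against 166, a log2 ratio of 0.79. Of 13 measured genes in a list of other chloride channels and transporters and of the ezrin, radixin and moesin family, 2 were at least 2-fold higher and 0 lower, with a median of 0.15. The shares over all measured genes were 2.47% and 1.75%. The 2 genes were MSN, or moesin, which ties membrane proteins to actin (4025 against 420.2, log2 ratio 3.26), and TTYH3, a tweety family protein (506 against 228, log2 ratio 1.15). CLCA2, a squamous cell surface protein first named as a chloride channel regulator and also singled out afterwards, read 231 against 445, a log2 ratio of -0.95. The log2 ratios of its 4 measured probe sets ran from -0.95 to -0.13.

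CCND1 was higher in CD90+ cells on both of its probe sets. The brighter, 208712_at, read 5561 in CD90+ and 3299.6 in CD90- cells, 1.69-fold, and the other, 208711_s_at, read 2252 against 1389, 1.62-fold. The log2 ratios of 0.75 and 0.70 lay within 0.06 of each other. For comparison, ratios of different probe sets of a gene had a pooled SD of 0.28 over 2993 genes of this brightness, a figure that holds the noise of the array but no variation from sort to sort. Of the 5012 genes of that brightness 114, or 2.27%, had a ratio at least as high as that of CCND1. The difference was under 2-fold.

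Genes that act with cyclin D1 were beyond 2-fold about as rarely as all measured genes, of which 4.22% were. Of 29 measured genes of the cyclin D, CDK4/6 and RB list 1 was at least 2-fold higher and 0 were lower, and the median log2 ratio was -0.08. The 1 was CDKN1C, which encodes the CDK inhibitor p57, at 1518 against 648 (log2 ratio 1.23), with all 4 of its probe sets above 0. Others of the list, picked out with their values known, lay closer. The related cyclins CCND2 and CCND3 read 4316 against 3796 and 1781 against 1317. CDK4 read 9636 in CD90+ and 10118 in CD90- cells, CDK6 read 6932 against 8432, and RB1 read 4891 against 5687. CCNE1, the cyclin that acts after cyclin D, went the other way at 1318 against 2270.0, a log2 ratio of -0.78.

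FADD couples the death receptors FAS and TRAIL-R to caspase-8. Its single probe set, 202535_at, read 9171 in CD90+ and 6541 in CD90- cells, 1.40-fold and a log2 ratio of 0.49. Of the 5012 genes of that brightness 6.19% had a ratio at least as high, and with 1 probe set nothing on the array repeats the measurement. None of the 14 measured genes of the death receptor list was beyond 2-fold, and the median was 0.14. The 2 brightest, XIAP and BID, read 7988 against 10272 and 4583 against 5138. After the values were seen, the TRAIL receptor TNFRSF10B and the ligand TNFSF10 were singled out, as having the highest signals among those past 1.5-fold. TNFRSF10B read 1722 against 1066 (log2 ratio 0.69), the highest of its 3 measured probe sets, the lowest being 0.02. TNFSF10 read 1473 against 960.4 (log2 ratio 0.62). The other measured TRAIL receptor of the list, TNFRSF10A, read 1305 against 1648, a log2 ratio of -0.34, with 0 of its 3 probe sets above 0. TNFRSF10C and TNFRSF10D were listed but not measured. CASP8 itself read 937 against 1046.

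The growth factor genes between LTO1 and ANO1 stayed under the floor in both fractions. FGF19, an endocrine factor of bile acid control, read 18.3 in CD90+ and 19.2 in CD90- cells. FGF3 read 8.82 against 3.81, and FGF4, a factor of early embryos, read 52.6 against 31.6 on one probe set and 2.80 against 4.19 on the other. No fold is given, since both sides were under the floor. The receptors were better measured: of 17 measured genes among receptors, co-receptors and other ligands 0 were beyond 2-fold, with a median of -0.21. FGFR2 read 5612 against 5188, and the proteoglycan GPC1 read 2318 against 2691. FGFR4, the main receptor of FGF19 and singled out afterwards, read 225 against 114, a 1.98-fold difference just short of 2-fold.

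The scaffold and cytoskeleton genes at the far end of the segment split. SHANK2, which encodes a scaffold best known from excitatory synapses, was higher in CD90+ cells on the 3 of its 6 probe sets that were measured. They read 2016 against 1162 (1.74-fold, 213308_at), 1064 against 712 (1.49-fold, 213307_at) and 894 against 621 (1.44-fold, 243681_at). The 3 others were below the floor in both fractions, the brightest of them at 52.7 against 60.5. Of the 5012 genes as bright as the first probe set 2.00% had a ratio at least as high. Among its binding partners 0 of 10 measured genes were beyond 2-fold and the median was 0.03, with ABI1 at 2987 against 2867 and DLG1 at 2563 against 2871.

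PPFIA1 and CTTN, the neighbours on the near side of SHANK2, were alike in both fractions. PPFIA1, or liprin-alpha-1, a scaffold of focal adhesions, gave log2 ratios from -0.07 to 0.10 on its 4 probe sets, and the brightest read 13610.0 in CD90+ and 13984 in CD90- cells. CTTN gave log2 ratios from -0.19 to 0.11 on the 4 of its 5 probe sets that were measured. The brightest read 28309 against 26146 and the next 6818 against 7779.95, so the sign of the CTTN ratio depends on the probe set. The fifth read 2.94 against 10.5, under the floor. The SD of the log2 ratios over probe sets was 0.08 for PPFIA1 and 0.14 for CTTN, both under the pooled 0.28. No measured probe set of either gene had a ratio as high as that of CCND1.

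The cortactin and liprin lists were counted in the same way, beside the 4.22% of all measured genes beyond 2-fold. None of 21 measured genes of the branched actin list was beyond 2-fold, and their median was 0.05. The ARP2/3 subunits ARPC2 and ACTR3 read 23583 against 24143 and 14851 against 18865. Of 15 measured genes of the liprin list 2 were at least 2-fold higher and 0 were lower, and the median was 0.03. PPFIBP1, or liprin-beta-1, read 757 against 286 (log2 ratio 1.41) with all 5 of its probe sets above 0, and KANK1, an adhesion protein that binds liprin-beta-1, read 1138 against 456 (log2 ratio 1.32). The second KANK1 probe set had a log2 ratio of 0.09, and by the least changed probe set 0 genes of that list were beyond 2-fold.

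LTO1, next to CCND1, was near equal in the fractions on its brighter probe set. Its probe sets read 703 in CD90+ and 684 in CD90- cells (log2 ratio 0.04) and 672 against 513 (log2 ratio 0.39). The brighter ratio is the one counted, and 45.2% of the 3962 genes of like brightness had a ratio at least as high. LTO1 works with YAE1 to load the cluster of the ribosome recycling factor ABCE1. YAE1 read 1644 against 1591 and ABCE1 3354 against 3022, both picked out with their values known. In the list of that complex and of cytosolic iron-sulfur assembly 0 of 11 measured genes were beyond 2-fold and the median was 0.11, with CIAO2A at 13210.5 against 13332 and CIAO2B at 8455 against 7860.1. The largest difference, singled out afterwards, was that of CIAO1, at 530 against 1046 (log2 ratio -0.98), just short of 2-fold. None of its 3 probe sets was above 0, while 7 of the 11 genes were.

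**Figure D2:**
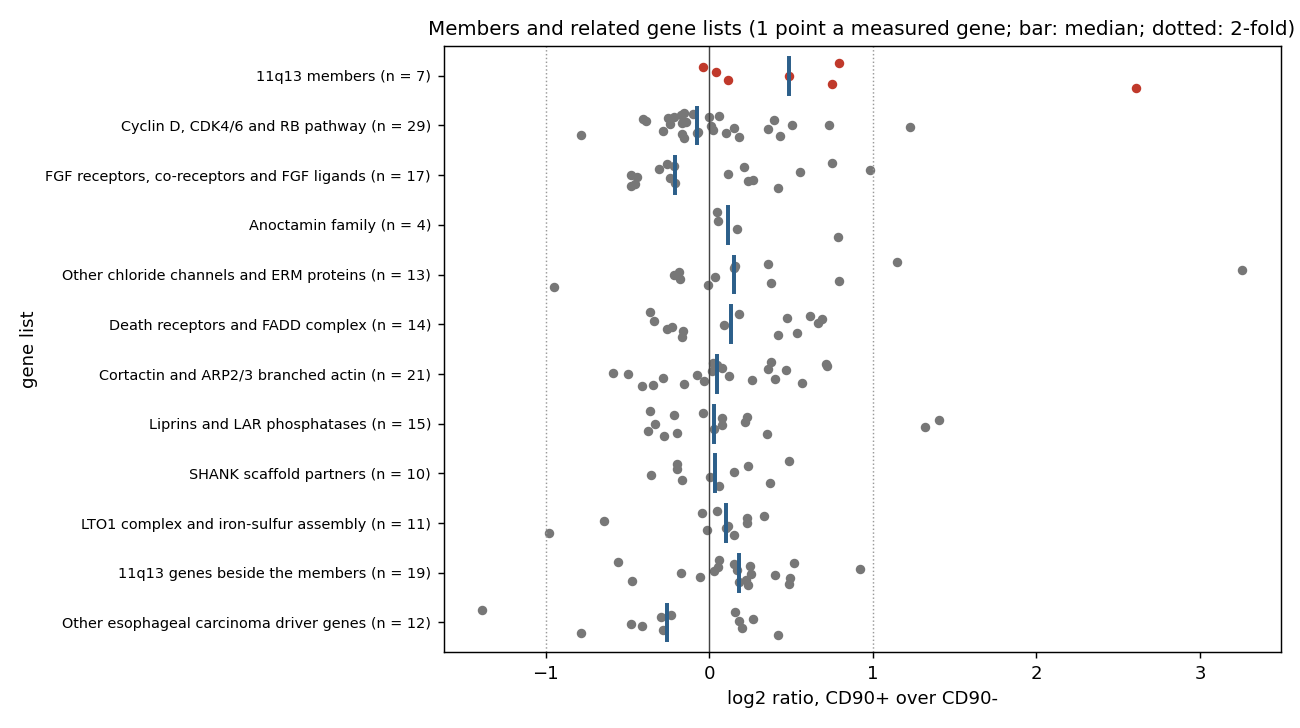
Log2 ratio, CD90+ over CD90-, of each measured gene (points) in the 11q13 group (red) and in 11 related lists (grey), with the number measured in brackets, the median as a bar and 2-fold as dotted lines. The ANO1 point at 2.61 stands apart from the other members, and the one point beyond it in any list is MSN at 3.26.

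Read in chromosomal order, the log2 ratios of the members ranged from -0.04 to 2.61. CCND1 at 0.75 was followed by LTO1 at 0.04, ANO1 at 2.61, FADD at 0.49, PPFIA1 at -0.04, CTTN at 0.11 and SHANK2 at 0.80. The value of LTO1 depends on the probe set, since its other one gave 0.39. Whether the ratios share a cause was not tested. PPFIA1 and CTTN, 2 adjacent members near 0, lie between FADD and SHANK2, and the neighbours of ANO1 on either side that were measured lie more than 2 log2 units below it. Inside the segment 3 more transcripts had a probe set, LINC02753, SHANK2-AS2 and SHANK2-AS3, and all 3 stayed under the floor. Of the 25 measured genes before CCND1 1 was at least 2-fold lower and 0 were higher by that much, with a median of 0.15. Of the 25 after SHANK2 0 were beyond 2-fold, and the median was 0.24. The 50 measured genes nearest to ANO1, the members left out, had a median of 0.09, and subtracting it leaves 2.52 for ANO1, 0.66 for CCND1, 0.70 for SHANK2 and 0.40 for FADD.

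The nearest genes outside the segment were picked out with their values known. MYEOV, just before CCND1 and often amplified with it, read 228 against 120.3, a log2 ratio of 0.92 on a dim probe set. DHCR7, just after SHANK2, the last enzyme of cholesterol synthesis, read 8468 against 11732, a log2 ratio of -0.47. Over the 19 measured genes of the list of genes beside the segment 0 were beyond 2-fold and the median was 0.18, with CPT1A at 11807 against 10409 and MRPL21 at 11279 against 10031.

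**Figure D3:**
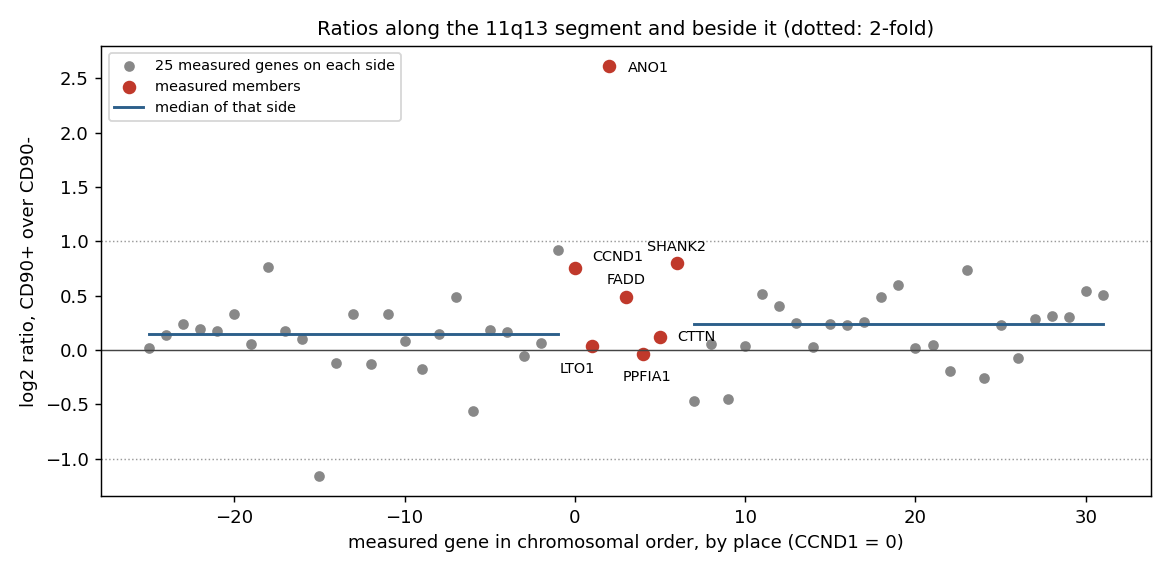
Log2 ratio, CD90+ over CD90-, of the 7 measured 11q13 genes (red) and of the 25 measured genes on each side (grey) by place in chromosomal order, with the median of each side as a blue line (0.15 and 0.24) and 2-fold as dotted lines. ANO1 stands alone above 2-fold, and LTO1, PPFIA1 and CTTN lie near 0 between members with higher ratios.

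Other driver genes of esophageal squamous carcinoma lay on both sides of 0. Of 12 measured genes 1 was at least 2-fold lower and 0 were higher by that much, 5 had a log2 ratio above 0, and the median was -0.26, or -0.02 by the least changed probe set. Over all measured genes 1.75% were lower and 2.47% higher by 2-fold. The gene that was lower was ZNF750, a squamous differentiation factor known for loss and not gain in these tumours, at 90.2 against 236 (log2 ratio -1.39). SOX2 read 23328 against 27407 and EGFR 7673 against 6675, both picked out with their values known.

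Markers of other cells were measured in part. Of 9 fibroblast markers 3 were measured and 0 were beyond 2-fold, a count that depends on the floor and on the probe set. COL1A1 read 2125 against 1240.2, and its 3 measured probe sets had log2 ratios from 0.69 to 1.01, the highest just past 2-fold. Neither fraction reached the floor for DCN, LUM, FAP, PDGFRB, COL1A2 or COL3A1. The other 2 measured were ACTA2 at 104.0 against 29.1 and PDGFRA at 106.9 against 107.0. For ACTA2 the CD90- signal was under the floor, so its counted 1.45-fold is a lower bound. The 9 signals summed to 2528 in CD90+ and 1499.7 in CD90- cells. Of 5 leukocyte markers 2 were measured, CD79A (238 against 256) and ITGAM (72.4 against 35.1), and PTPRC, CD3E and CD14 were under the floor in both. Of 6 endothelial markers 1 was measured, PECAM1 (98.5 against 70.9), and CDH5, VWF, KDR, TEK and CLDN5 were under it. Of 7 neural markers 3 were measured, TUBB3 (11717 against 10094), MAP2 (2115 against 2329.9) and SNAP25 (98.8 against 122), and ELAVL3, ELAVL4, GFAP and SYP were not. The summed signals were 349 against 397 for leukocyte, 225 against 121 for endothelial and 13969 against 12596 for neural markers. ANO1 and COL1A1 were both higher in CD90+ cells, and the part of fibroblast markers in the first was not tested.

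The ratios of the members changed little with the processing, ANO1 apart. Other floors, the filter and leaving out shared probe sets could not change them, so their agreement carries no weight. The probe set standing for each gene is not shared, and both its signals exceed every floor used. FADD has 1 probe set, so the probe set rules could not move its ratio either. Over 11 other settings CCND1 lay between 0.63 and 0.77, SHANK2 between 0.53 and 0.81, FADD between 0.36 and 0.50 and PPFIA1 between -0.20 and -0.01. The log2 ratio of CTTN ran from -0.06 to 0.13 and that of LTO1 from -0.10 to 0.21, so neither keeps a sign. ANO1 came to 1.62 as the mean of its probe sets and to 0.62 by the least changed one, where the second is the bound set by the floor.

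**Figure D4:**
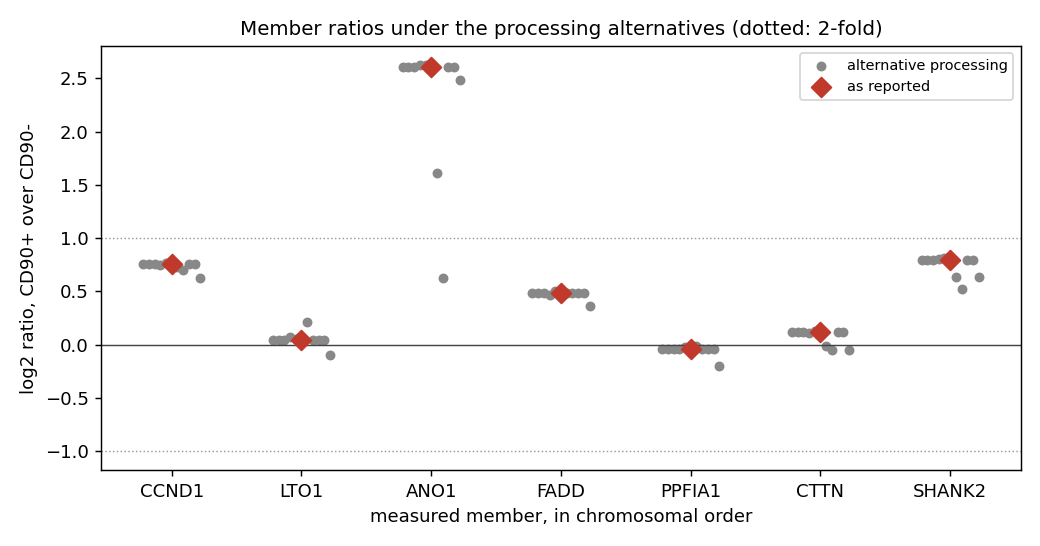
Log2 ratio, CD90+ over CD90-, of each measured 11q13 gene as reported (red diamonds) and under 11 other processing settings (grey points), with 2-fold as dotted lines. The points of each gene lie close together except for ANO1, where 2 settings that use its dim probe set give 1.62 and 0.62. Settings that change only the floor, the filter or the use of shared probe sets repeat the reported value by construction.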

How the data were processed

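Total RNA of 1 CD90+ and 1 CD90- sample was analysed, grouped by the cell population label. The deposited values are MAS5 signal intensities per the submitters' processing notes, made by the authors from perfect-match and mismatch probes and scaled to a trimmed mean of about 500; the version was not given in the sources used here. MAS5 subtracts mismatch signal, so ratios of dim probe sets are noisy. Probe sets were named from the platform annotation: 41097 had 1 symbol, of which 41043 matched the RefSeq gene table of GRCh38.p14, 1801 had several and 11777 none. Control probe sets (62) were left out.

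Signals were floored at 71.6, the geometric mean of both array medians, and log2 ratios taken, CD90+ over CD90-. The probe set with the highest mean log2 signal stood for a gene, _x_at only where no other existed, and genes were counted at 2-fold. In each list up to 4 genes beyond 2-fold each way were named, or the 2 brightest where none was. The members and lists were chosen with earlier results of these data known. With 1 array a group there was no test, and the number of arrays limits the precision. With 2 arrays each gene has 1 ratio, so no gene was named for a pattern like that of a member. Alternatives were other floors, normalizations, probe set rules, a filter and subtraction of the 50 nearest genes. The counting was tested on simulated data with changes well past 2-fold planted in bright genes, which does not bear on differences under 2-fold. Python 3.11.15, numpy 2.4.6, pandas 2.3.3, statsmodels 0.14.6 and matplotlib 3.10.9 were used.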

Additional observations from a re-analysis of the deposited data

How the results depend on the processing

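No paired analysis was possible because each group holds 1 array, and no replicate could be left out. The count of members at least 2-fold apart, 1, was 1 under 10 of 11 other settings and 0 by the least changed probe set, where ANO1 is at the bound that the floor sets (log2 ratio 0.62). Other floors, the filter and leaving out shared probe sets could not change the ratios of the measured members. Alternatives chosen after seeing the data gave 1 by the least changed probe set without a floor, where ANO1 is at 2.23, and 0 without ANO1. The members' median log2 ratio ran from 0.30 to 0.50, and the local median around the segment from 0.07 to 0.19, over their alternatives. ANO1 stayed above 0 under the alternatives run. Most of these reuse its bright probe set, and with the floor the ratio of the dim one could not fall below 0.

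The number of genes beyond 2-fold depends on the floor: 308 were higher and 218 lower as reported, 1122 and 835 after flooring at the 25th percentile, 89 and 66 at the 75th, and 541 and 381 without a floor. Among the lists, the FGF and death receptor lists had 0 genes beyond 2-fold as reported and up to 4, the genes beside the segment 0 and up to 3, the anoctamin and SHANK lists 0 and up to 1, the cyclin D list 1 and up to 2, the chloride channel list 2 and from 1 to 3, the liprin list 2 and from 0 to 3, and the driver list 1 and from 0 to 1. The FGF list's median of -0.21 turned positive in 3 cases: 0.10 by the least changed probe set, 0.11 after flooring at the 25th percentile and 0.14 without shared probe sets. Medians of the cyclin D, liprin and SHANK lists also changed sign under an alternative.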

Other observations

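Chromosome 11 as a whole leaned towards CD90+ cells. Over its 695 measured genes other than the 11q13 members the median log2 ratio was 0.14, the highest of the 22 autosomes, and 69.6% of the ratios were above 0, against 51.2% over all measured genes. The lowest median, -0.27, was that of chromosome 2. At least 2-fold higher were 30 of the 695 genes (4.32%), and 8 were at least 2-fold lower.

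The distance between the probe sets of ANO1 depends on the floor. With the floor their log2 ratios of 2.61 and 0.62 lay 1.99 apart, and among 1533 genes as bright with 2 measured probe sets 3, ANO1 included, differed as much. Without a floor the dimmer probe set gave 2.23, so the gap came down with the floor removed. That value rests on a CD90- signal of 23.6, under the floor, where ratios are noisy. Whether the 2 probe sets differ beyond this was not tested. Which ANO1 transcripts the 2 probe sets read was not analysed here.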
